A study of Mus musculus with 12 samples.

Results

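The genes described here are 40 markers of macrophages and other innate immune cells, looked up by symbol among the 24061 gene identifiers of a table of read counts per gene. All 40 were found. They comprise 9 genes of leukocyte identity, 5 of the lysosome and phagocytosis, 5 Fc receptor, adaptor and surface receptor genes, 7 genes typical of resident tissue macrophages, the 3 chains of complement C1q, 3 genes of recruited monocytes and neutrophils, 5 chemokines and 3 inflammatory cytokines. The RNA was total RNA from entire hearts of male mice aged 4 months, with 6 hearts of each genotype and 1 library per mouse. The group labelled wild type (W1 to W6) is Slc4a4 flx/flx, floxed at the gene for the sodium-bicarbonate cotransporter NBCe1 but without Cre, and the group labelled knockout (K7 to K12) is Slc4a4 flx/flx(Cre), in which Cre driven by the β-myosin promoter removes exon 12 in cardiac myocytes. Both genotypes carry the floxed alleles and only the knockout mice carry Cre, so the deletion and the presence of Cre cannot be told apart. Immune cells are not the cells in which this promoter is stated to act. The comparison asks whether the immune cell transcripts of the heart differ once myocytes lack the transporter.

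As background, macrophages are the most common leukocytes of the healthy mouse heart. Some are seeded before birth and renew themselves in the tissue, and these carry Timd4, Folr2, Cd163 and Mrc1. Others arise from blood monocytes that enter through the chemokine receptor CCR2. Survival of the lineage depends on the receptor for colony-stimulating factor 1, encoded by Csf1r, and its identity on the transcription factor PU.1, encoded by Spi1. Resident macrophages take up debris from myocytes and are the main source of complement C1q in many tissues.

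PU.1 binds a purine-rich element whose core reads GAGGAA, and many myeloid promoters lack a TATA box and carry that core close to the start site. The 250 bases before the annotated start were therefore searched for GAGGAA on both strands (TTCCTC when read on the gene's own strand), with RefSeq promoter sequences of GRCm38.p6 and no other motif searched. Of the 31 members with a promoter sequence in that table, 15 held the core (48.4%), against 25.9% of all 27025 genes with a sequence. Adgre1, C1qa, Ccl2, Ccl24, Cd14, Csf1r, Itgb2, Spi1 and Tyrobp had no entry. A gene with several annotated starts was counted once if any of its windows held the core. This is a count of letters in a window, and says nothing of whether the factor is bound. The stretches below are shown because they hold the core in 7 members whose values are described further on, with the core in capitals, 5′ to 3′ on the gene's strand, ending at the base before the start.
C1qb, chr4:136886201-136886450, minus strand: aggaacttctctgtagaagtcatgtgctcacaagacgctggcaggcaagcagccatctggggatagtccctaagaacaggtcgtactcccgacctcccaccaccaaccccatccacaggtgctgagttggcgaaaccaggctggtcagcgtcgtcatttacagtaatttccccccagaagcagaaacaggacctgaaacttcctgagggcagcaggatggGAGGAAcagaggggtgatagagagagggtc
C1qc, chr4:136892915-136893164, minus strand: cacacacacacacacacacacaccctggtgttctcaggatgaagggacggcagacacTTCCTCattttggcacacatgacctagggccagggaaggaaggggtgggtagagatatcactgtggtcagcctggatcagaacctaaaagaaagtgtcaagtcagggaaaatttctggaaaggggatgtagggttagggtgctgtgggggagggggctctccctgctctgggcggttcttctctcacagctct
Laptm5, chr4:130913216-130913315, plus strand: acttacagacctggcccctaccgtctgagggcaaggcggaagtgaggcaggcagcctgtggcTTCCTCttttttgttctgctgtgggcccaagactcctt
Cd53, chr3:106790150-106790249, minus strand: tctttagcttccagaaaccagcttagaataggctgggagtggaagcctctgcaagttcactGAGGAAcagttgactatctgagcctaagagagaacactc
Itgam, chr7:128062540-128062639, plus strand: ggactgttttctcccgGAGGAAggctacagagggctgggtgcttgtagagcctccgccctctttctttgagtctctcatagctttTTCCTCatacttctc
F13a1, chr13:37050245-37050344, minus strand: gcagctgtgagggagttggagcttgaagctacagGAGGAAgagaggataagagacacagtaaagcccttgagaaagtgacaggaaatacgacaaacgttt
Cbr2, chr11:120732022-120732121, minus strand: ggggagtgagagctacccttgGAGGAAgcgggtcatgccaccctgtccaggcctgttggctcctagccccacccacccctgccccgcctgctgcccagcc
In the C1qb stretch the core begins 30 bases before the start, in Laptm5 38, in Cd53 39, in F13a1 66 and in Cbr2 79 bases before it. In C1qc it lies farther off, at 193 bases. Itgam holds it in both orientations, at 84 and at 15 bases. Mrc1, not printed, holds it 3 times, with the nearest at 35 bases. The windows of Cd163, Cx3cr1 and Ccr2, and those of Lyz2, Mpeg1, Ccl6 and Ccl9 do not contain these letters.

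Slc4a4 was read first as a check of the genotypes, with reads counted over the whole gene and not over the deleted exon alone. The gene ran from 63.6 through a median of 90.1 to 106 CPM in wild-type hearts (CPM are reads per 1000000 reads of the library, after TMM scaling), and from 38.4 through 47.6 to 68.5 CPM in knockout hearts, with a log2 fold change of -0.81 and an edgeR quasi-likelihood adjusted p of 0.0891. The lowest wild-type heart, W5, lay below the highest knockout heart, K8. Libraries held 10631869 to 13327519 reads. W2 carried the most red cell transcripts, with the 9 red cell markers summing to 30883 CPM against 4747 to 14384 CPM in the other 11 hearts. Hba-a1 and Hba-a2 had identical totals, means and ranges, so the same reads enter these sums under both names. W6 was the highest of all 12 hearts for 11 of the 35 tested members and the lowest for none. The labels name no batch, and that each library is a separate mouse rests on the design text.

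Among the 40 genes, no immune transcript passed the test for a difference between genotypes. Of the 35 that had enough reads, 19 had a positive and 16 a negative log2 fold change (knockout over wild type), and 0 reached an adjusted p under 0.05 when 13832 genes were tested by edgeR's quasi-likelihood method, where 0% of all genes did. At an unadjusted p under 0.05 there was 1 member, Ptprc, or 2.86% of those tested, against 4.06% of all genes, of which 2% were lower in knockout, as Ptprc was, and 2.07% higher. In limma-voom 0 members passed after adjustment, as did 0% of all genes, and 2 had an unadjusted p under 0.05, against 4.1%. In DESeq2 0 members passed after adjustment, against 0.0736% of all genes, and 1 had an unadjusted p under 0.05, against 3.62%. The median log2 fold change of the tested members was 0.007, beside 0.0018 over all genes. For 0 members did the values of the genotypes separate completely, while they did for 0.253% of all genes. In whole-heart RNA fewer cells of a type and less RNA per cell cannot be told apart, so each value is a level of transcript in the heart and not a count of cells. Of the markers of other cells none passed the adjusted test. The 9 red cell markers all had negative log2 fold changes (median -0.75), 7 of them with an unadjusted edgeR p under 0.05. Hba-a1 and Hba-a2 among them had identical values, so the counts of 9 and 7 take the same reads as separate genes. The part of residual blood in the member values was not tested. Fold changes of the members with W2 and K7 left out, hearts high in red cell transcripts, had a median of -0.03. W3, whose red cell sum of 14384 CPM was above the 11104 CPM of K7, stayed in. The endothelial sums ran from 762 to 841 CPM in wild type and from 785 to 874 CPM in knockout over 7 genes, and the cardiac myocyte sums from 52439.5 to 59691 CPM and from 53466 to 56595 CPM over 7 genes.

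**Figure D1:**
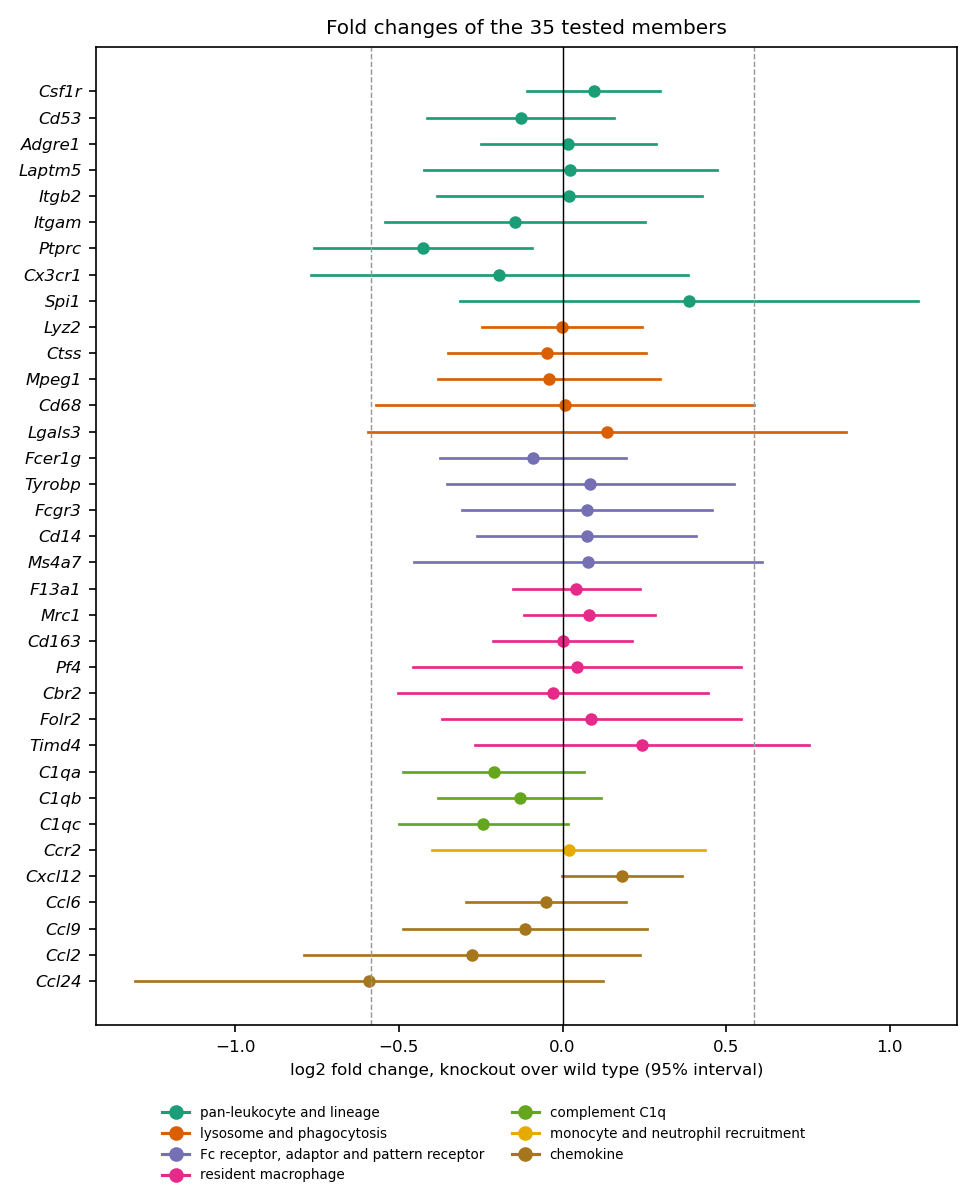
Log2 fold change of each of the 35 tested members (points, knockout over wild type, horizontal axis) with its 95% interval (lines), coloured by role. The dashed lines mark 1.5-fold in either direction. The interval of Ptprc lies below 0, those of the other 34 include 0, and 26 of the 35 lie within the dashed lines.

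The unadjusted 95% intervals show which fold changes fit the values of each member. They do not say how large a difference would have passed the adjusted test. Slc4a4 itself, at a log2 fold change of -0.81, had an edgeR adjusted p of 0.0891. For 26 of the 35 members (74.3%) the 95% interval lay within 1.5-fold in both directions, as it did for 77.3% of all genes tested, and for 33 it lay within 2-fold. The narrowest was that of Cxcl12 (standard error 0.087 on the log2 scale) and the widest that of Lgals3 (standard error 0.35). The exceptions at 2-fold were Spi1 and Ccl24, whose intervals reached 1.09 and -1.31. Over the 35 tested members the median biological coefficient of variation in the edgeR fit was 19.5%, with a range from 11.3% to 35.1%, against a median of 13.4% over all genes. Many members are low in whole heart, and the background was not matched for level.

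Levels differed widely between members. Per kilobase of exon (CPM divided by the exon length of the gene in GENCODE M21), Lyz2, which encodes lysozyme of macrophages, was the highest at 139.6 in wild type and 139 in knockout. Cxcl12, a chemokine that stromal and endothelial cells also make, followed at 36.4 and 41.3. The C1q chains came next, at 21.7 and 18.7 for C1qa. F13a1, the A subunit of coagulation factor XIII and a gene of resident macrophages, stood at 11.95 and 12.3 per kilobase. At the low end of the tested members were Spi1 at 0.487 and 0.636 per kilobase and Cx3cr1, the fractalkine receptor, at 0.697 and 0.608. A union of all annotated exons overstates the length of a gene whose long transcripts are rarely used, such as Ptprc with 18313 bases, and so understates its level. Of the resident macrophage genes, Mrc1 stood at 10.2 and Cd163 at 7.52 per kilobase over all 12 hearts and Timd4 at 1.06. Of the genes of recruited cells, Ccr2 stood at 1.85 per kilobase, and S100a8 and S100a9 at 1.27 and 1.02.

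**Figure D2:**
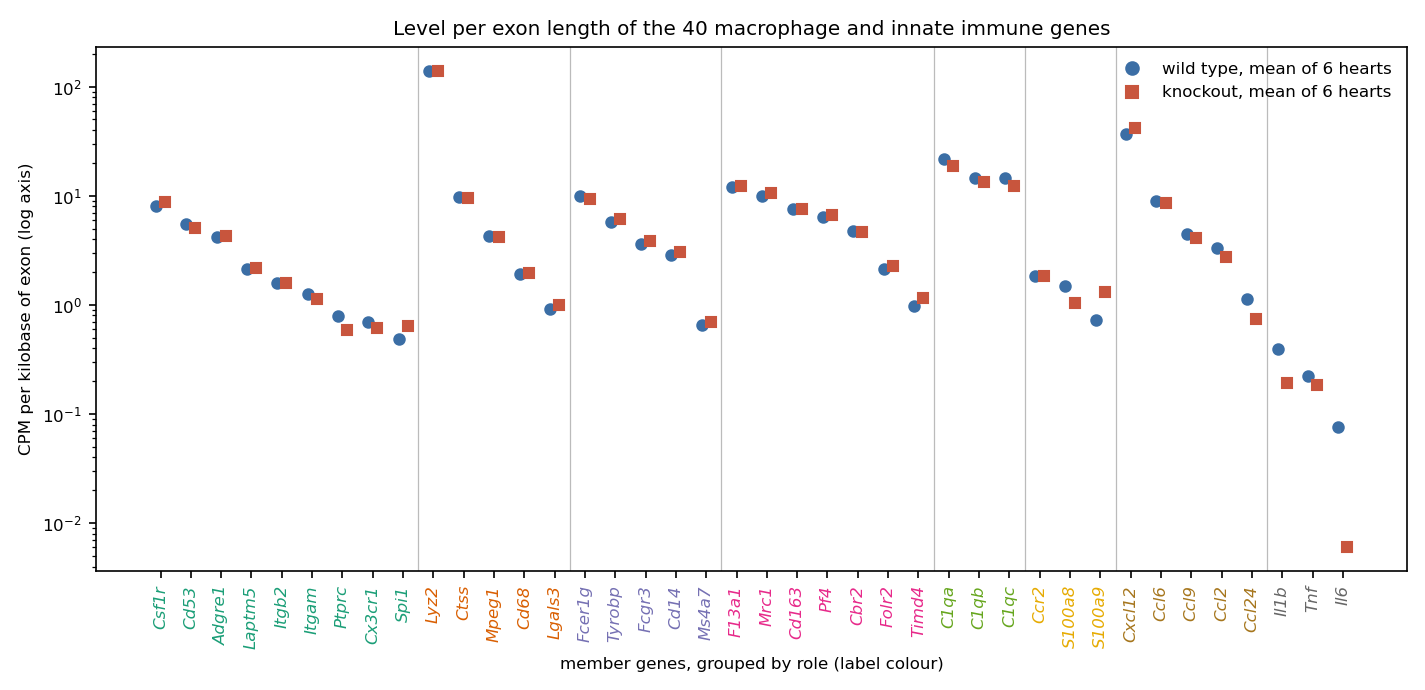
Level of each of the 40 members per kilobase of exon (log axis), as the mean of 6 wild-type hearts (circles) and of 6 knockout hearts (squares), grouped by role with the label colour. Lyz2 and Cxcl12 are the highest, and the inflammatory cytokines Il1b, Tnf and Il6 the lowest.

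Genes of leukocyte identity did not pass the test in either direction. Ptprc encodes CD45, the tyrosine phosphatase on the surface of all white blood cells. It ran from 10.4 CPM through a median of 13.4 to 21.01 CPM in wild-type hearts, and from 9.35 through 10.6 to 12.6 CPM in knockout hearts. All 6 knockout hearts lay below the wild-type median and 3 fell under W1, the lowest wild-type value, while W3, W4 and W5 lay above every knockout heart. Its means were 14.4 ± 4.18 CPM over wild-type hearts against 10.7 ± 1.34 CPM over knockout hearts (SD, n = 6 each; log2 fold change -0.43, 95% interval -0.76 to -0.092), and the edgeR p of 0.015 became an adjusted p of 0.999 over all genes. Without W4, the highest heart, the log2 fold change was -0.29 and the unadjusted edgeR p 0.0568, with an adjusted p of 0.988. Leaving out any other single heart kept the unadjusted edgeR p of Ptprc under 0.05. It ran from 0.00471 without W1 (log2 fold change -0.51) to 0.0401 without W3 (log2 fold change -0.37). The lowest adjusted edgeR p of these fits was 0.670, without W6. Cd53, a tetraspanin of leukocytes, averaged 9.65 and 8.83 CPM (log2 fold change -0.13), and Laptm5, a lysosomal membrane protein of blood cells, 8.09 and 8.22 CPM (log2 fold change 0.024). The integrin chains Itgam and Itgb2, which pair as complement receptor 3, had log2 fold changes of -0.14 and 0.021.

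The receptor gene Csf1r ran from 40.7 CPM through a median of 43.4 to 64.1 CPM in wild-type hearts, and from 46.7 through 50.3 to 52.7 CPM in knockout hearts. All 6 knockout hearts lay above the wild-type median, yet W6 lay above all of them, so the genotypes overlapped. The means were 46.9 ± 8.91 CPM over wild-type hearts against 50.1 ± 1.97 CPM over knockout hearts (SD, n = 6 each; log2 fold change 0.10, 95% interval -0.11 to 0.30; edgeR adjusted p = 0.999). Leaving out 1 heart at a time moved the log2 fold change from 0.053 without W2 and 0.056 without W4 to 0.21 without W6. Without W6 the unadjusted edgeR p was 0.0108 and the adjusted p 0.686, and without W2 they were 0.606 and 0.996. Spi1, the gene of PU.1, ran from 0.732 CPM through a median of 1.01 to 2.78 CPM in wild-type hearts, and from 1.08 through 1.84 to 1.95 CPM in knockout hearts. It rests on 213 reads over all hearts, and W6 was again above every knockout heart. The other 5 wild-type hearts lay below 5 of the 6 knockout hearts. Its log2 fold change of 0.39 (95% interval -0.31 to 1.09) became 0.74 without W6, with an edgeR adjusted p of 0.838, and 0.27 without W2 or W3. Adgre1, which encodes the macrophage surface antigen F4/80, averaged 13.7 and 13.8 CPM (log2 fold change 0.017), and Cx3cr1 averaged 3.14 and 2.74 CPM (log2 fold change -0.19).

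**Figure D3:**
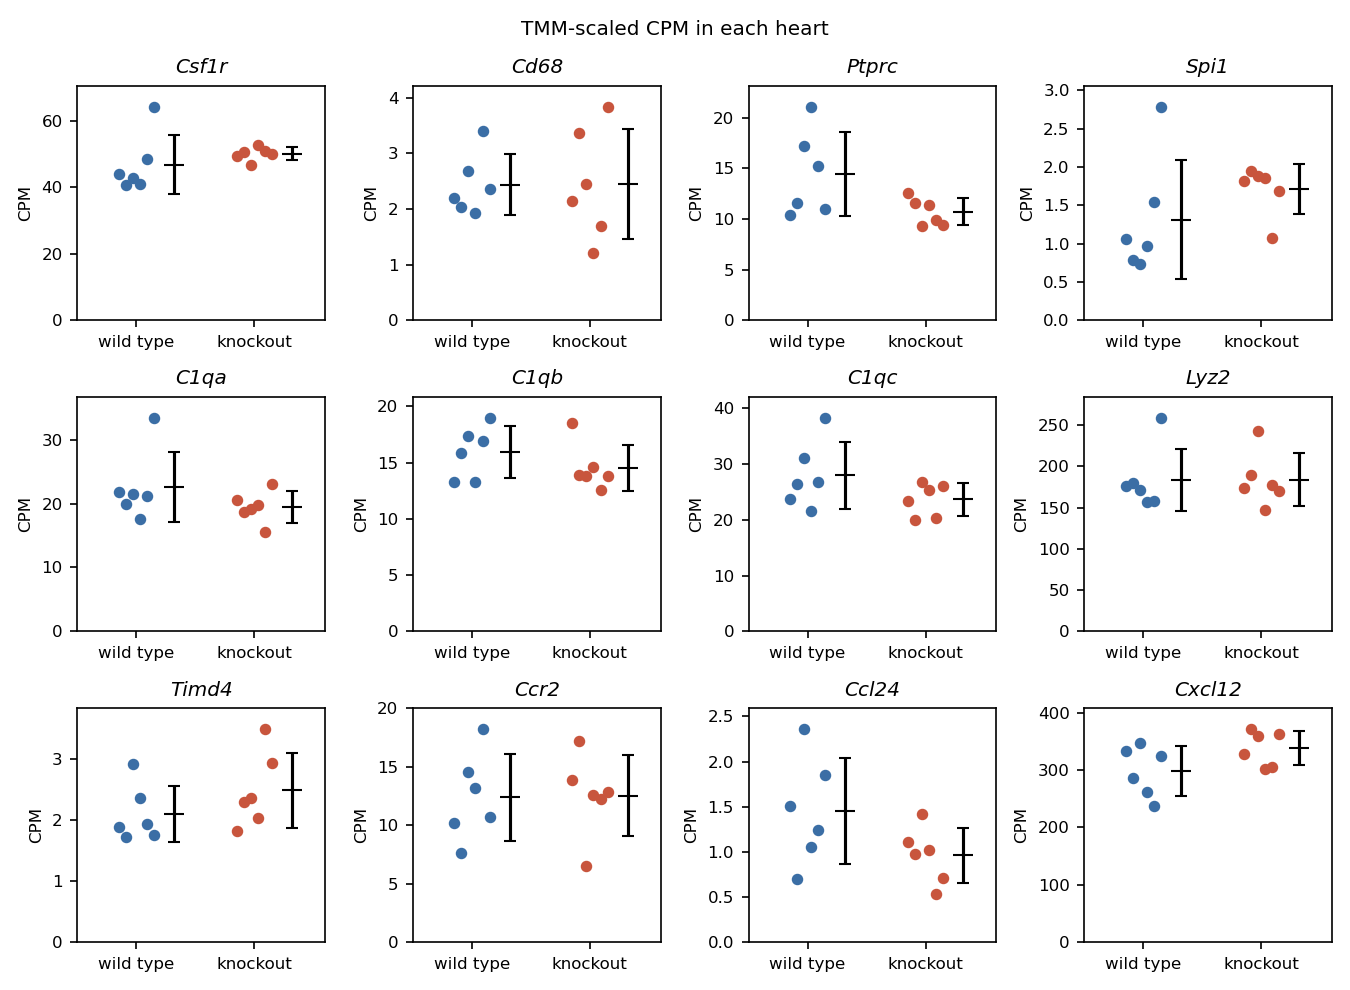
TMM-scaled CPM of 12 members in each heart (points, vertical axes from 0), with the mean and SD of 6 hearts beside each genotype. In every panel the genotypes overlap, and W6 is the highest wild-type heart for Csf1r, Spi1, C1qa, C1qb, C1qc and Lyz2.

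None of the lysosomal genes passed the test. Cd68, a lysosomal glycoprotein used to stain macrophages, ran from 1.93 CPM through a median of 2.27 to 3.41 CPM in wild-type hearts, and from 1.21 through 2.30 to 3.83 CPM in knockout hearts. Its lowest hearts, K10 and K11, and its highest, K12, were all knockout. The log2 fold change was 0.007 (95% interval -0.57 to 0.59), with 348 reads in all behind the gene. Lyz2 ran from 157 CPM through a median of 174 to 258 CPM in wild-type hearts, and from 148 through 176 to 243 CPM in knockout hearts. W6 and K9 were the high hearts, one of each genotype, and the log2 fold change was -0.0012 (95% interval -0.25 to 0.24). Its paralog Lyz1, next to it on chromosome 10, held 29.8 and 31.3 CPM. No source used here says how reads that match both were counted, so the split between these genes is uncertain. Ctss, the protease cathepsin S, averaged 13.4 and 12.9 CPM, and Mpeg1, which encodes the pore-forming perforin-2 of macrophages, 18.6 and 18.01 CPM. Lgals3, the lectin galectin-3, varied most between hearts of a genotype among the tested members, with a coefficient of variation of 44.7%, and it ran from 0.906 CPM through a median of 1.48 to 2.71 CPM in wild-type hearts, and from 0.712 through 1.78 to 3.15 CPM in knockout hearts. Its means were 1.70 ± 0.665 CPM over wild-type hearts against 1.87 ± 0.912 CPM over knockout hearts (SD, n = 6 each; log2 fold change 0.14, 95% interval -0.59 to 0.87). Next in spread were Spi1 at 39.3% and Ccl24 at 38.98%.

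The activating receptors and their adaptors differed by less than the spread between hearts. Fcer1g, the gamma chain shared by Fc receptors, averaged 8.76 and 8.23 CPM (log2 fold change -0.091) and Fcgr3, which pairs with it, 6.30 and 6.62 CPM (log2 fold change 0.074). Tyrobp, the adaptor DAP12 that signals for TREM2 and other receptors, averaged 3.84 and 4.06 CPM, and 2 knockout hearts lay above and 2 below every wild-type heart. Cd14, the lipopolysaccharide co-receptor, averaged 5.004 and 5.27 CPM, and Ms4a7, a membrane protein of macrophages, 2.93 and 3.10 CPM. Between 45 and 98 reads per heart stood behind Fcgr3 and between 21 and 51 behind Ms4a7, so single hearts carry a sizeable counting error.

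Genes of resident macrophages had 6 positive and 1 negative fold change among 7, all small. Timd4, the phosphatidylserine receptor TIM-4 of long-lived resident cells, had the largest. It ran from 1.73 CPM through a median of 1.91 to 2.93 CPM in wild-type hearts, and from 1.82 through 2.33 to 3.49 CPM in knockout hearts. K11 and K12 lay above every wild-type heart, and the other 4 knockout hearts fell within the wild-type range. Its means were 2.10 ± 0.464 CPM over wild-type hearts against 2.49 ± 0.618 CPM over knockout hearts (SD, n = 6 each; log2 fold change 0.24, 95% interval -0.27 to 0.75; edgeR adjusted p = 0.999). Mrc1, the mannose receptor CD206, averaged 63.2 and 66.9 CPM and Cd163, the scavenger receptor for haemoglobin and haptoglobin, 41.1 and 41.1 CPM, with log2 fold changes of 0.082 and 0.00055. F13a1 averaged 80.6 and 82.99 CPM, Folr2, a folate receptor, 3.29 and 3.50 CPM, and Cbr2, a carbonyl reductase, 6.36 and 6.23 CPM. Pf4 averaged 4.63 and 4.76 CPM. This chemokine is made by platelets as well as by resident macrophages, and the platelet gene Ppbp stood at 2.34 to 30.3 CPM in wild type and 2.60 to 19.3 CPM in knockout. Itga2b, the platelet integrin chain CD41, averaged 2.85 and 1.55 CPM (log2 fold change -0.87, edgeR unadjusted p of 0.0343 and adjusted p of 0.999), and all 6 knockout hearts lay below its wild-type median. Of the 3 tested platelet markers, 2 had negative fold changes, and Gp1bb, at 1.41 and 1.76 CPM, had a positive one (log2 fold change 0.33). Summed over 5 platelet markers, wild-type hearts held 20.4 ± 13.4 CPM and knockout hearts 13.3 ± 8.27 CPM (SD, n = 6 each), with ranges of 5.36 to 37.0 CPM and 4.57 to 24.9 CPM that overlapped. The part of platelets in the Pf4 values was not tested.

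The chains of C1q, which assemble in equal numbers into the first component of the classical complement pathway, all had lower means in knockout, and none passed the test. C1qa ran from 17.6 CPM through a median of 21.3 to 33.3 CPM in wild-type hearts, and from 15.5 through 19.5 to 23.1 CPM in knockout hearts. C1qb ran from 13.3 CPM through a median of 16.4 to 18.9 CPM in wild-type hearts, and from 12.5 through 13.9 to 18.5 CPM in knockout hearts. C1qc ran from 21.5 CPM through a median of 26.7 to 38.2 CPM in wild-type hearts, and from 20.03 through 24.4 to 26.7 CPM in knockout hearts. For each chain 5 of the 6 knockout hearts lay below the wild-type median, W6 was the highest wild-type heart and W4 the lowest. The log2 fold changes were -0.21 for C1qa, -0.13 for C1qb and -0.24 for C1qc, with 95% intervals from -0.49 to 0.067, -0.38 to 0.12 and -0.50 to 0.015. The edgeR p was 0.129, 0.284 and 0.0638, and the adjusted p 0.999 for each of them. Single hearts moved these values both ways. Without W6 the log2 fold changes of C1qa and C1qc were -0.067 and -0.13, with an edgeR adjusted p of 0.971 and 0.947. Without W4 they were -0.28 and -0.31, with an unadjusted edgeR p of 0.0514 and 0.0181 and an adjusted p of 0.988 for both. For C1qc the unadjusted edgeR p was also under 0.05 without W1 (0.0376) and without K9 (0.0460), with log2 fold changes of -0.29 and -0.28. The chain genes lie side by side on chromosome 4, and their values are not independent of each other. Summed over the chains, wild-type hearts held 66.5 ± 13.2 CPM and knockout hearts 57.7 ± 5.83 CPM (SD, n = 6 each), and the ranges, 52.4 to 90.5 CPM and 48.5 to 62.99 CPM, overlapped.

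Per kilobase of exon, C1qa made up 42.5% ± 3.04 of the C1q signal in wild type and 42.2% ± 2.23 in knockout (SD, n = 6 each). C1qb made up 29.1% ± 2.47 and 30.2% ± 2.94, and C1qc 28.4% ± 1.23 and 27.7% ± 2.29. The differences were smaller than 1 SD among hearts of a genotype. K7 had the largest share of C1qb, 34.8%, and the smallest of C1qc, 24.8%.

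Genes of recruited cells held few reads, apart from Ccr2. Ccr2, the receptor by which monocytes enter tissue, ran from 7.61 CPM through a median of 11.9 to 18.2 CPM in wild-type hearts, and from 6.51 through 12.7 to 17.2 CPM in knockout hearts. The highest heart was wild type (W5) and the lowest knockout (K9), and the log2 fold change was 0.018 (95% interval -0.40 to 0.43; edgeR adjusted p = 0.999). S100a8 and S100a9, which form the calprotectin of neutrophils and monocytes, were too low to enter the reported fit, with 129 and 77 reads in all. S100a8 reached 2.98 CPM in W2 and 2.53 CPM in K7, was at 0 reads in K9 and K11, and had 1.58 CPM or less in the other 8 hearts. W2 was also the heart richest in red cell transcripts and K7 the third, at 11104 CPM, and the part of residual blood in these reads was not tested. Of the 7 neutrophil markers, Camp, Ltf, Ngp, Retnlg and Mmp8 had at most 12 reads in any heart. The other markers of that list, Cxcr2 and Csf3r, held more, with 4751 and 1520 reads in all.

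Of the chemokines, 4 had negative and 1 a positive fold change, and none passed. Cxcl12, the ligand of CXCR4 that retains leukocytes in tissue, had the smallest p among members with a higher mean in knockout. It ran from 237 CPM through a median of 304 to 347 CPM in wild-type hearts, and from 302 through 344 to 371 CPM in knockout hearts. In 3 knockout hearts it lay above every wild-type heart, while K7, K10 and K11 fell within the wild-type range, and the means were 298 ± 43.7 CPM over wild-type hearts against 338 ± 30.1 CPM over knockout hearts (SD, n = 6 each; log2 fold change 0.18, 95% interval -0.0006 to 0.36; edgeR quasi-likelihood unadjusted p of 0.0507, adjusted p = 0.999). For Cxcl12 the unadjusted p was 0.0410 with limma-voom, and 0.0472 in edgeR with library totals. With single hearts left out, its unadjusted edgeR p ran from 0.0166 without W3 to 0.147 without W5. The log2 fold changes there were 0.23 and 0.12. The lowest adjusted edgeR p with 1 heart left out was 0.838, without W6. Ccl24, the eosinophil chemokine eotaxin-2, had the largest negative value. It ran from 0.706 CPM through a median of 1.38 to 2.36 CPM in wild-type hearts, and from 0.538 through 0.998 to 1.42 CPM in knockout hearts. K11 alone fell under the wild-type range, and with 6 to 29 reads per heart the log2 fold change of -0.59 had a 95% interval from -1.31 to 0.12. Ccl2, the ligand of CCR2, averaged 3.78 and 3.13 CPM (log2 fold change -0.28). Ccl6 averaged 15.9 and 15.3 CPM and Ccl9 13.7 and 12.6 CPM, both CC chemokines of myeloid cells. A further annotated gene, E230016K23Rik, overlaps Ccl6, and without strand information reads from it and from Ccl6 cannot be told apart.

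Inflammatory cytokines were at the edge of detection, and the 3 did not enter the reported fit. Il1b, the gene of interleukin-1β, had 82 reads in all, from 0.151 to 1.73 CPM in wild type and 0.0927 to 0.975 CPM in knockout, with W2 and W5 the high wild-type hearts and K8 the high knockout heart. Tnf, the gene of tumour necrosis factor, had 47 reads, at most 8 in any heart. Il6 had 15 reads, of which 10 were in W2, and 8 of the 12 hearts had 0. With no low-count filter its log2 fold change was -2.95 (edgeR unadjusted p of 0.0288, adjusted p of 0.885), and with DESeq2 -3.01 (unadjusted p of 0.0857). A count of 0 allows up to 3 reads, and these limits cover counting error only. No order of the genotypes can be read from such counts at this depth.

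Summed over the 40 members, the level per heart ran from 874 through a median of 938 to 1157 CPM in wild type and from 933 through 991 to 1101 CPM in knockout. W6 was the highest heart and W4 the lowest, so the wild-type range enclosed all knockout hearts. These genes took 0.0875% to 0.119% of the reads of a heart. Cxcl12 alone made up 32.2% of the sum, Lyz2 18.6% and F13a1 8.29%. Without Cxcl12, Lgals3, Ccl2 and Il6, which cells outside the myeloid lineage also express, wild-type hearts held 667 ± 82.6 CPM and knockout hearts 660.2 ± 41.8 CPM (SD, n = 6 each). The log2 ratio of the summed means was 0.048 with all members and -0.015 without these 4. Both differences in means were smaller than 1 SD among wild-type hearts.

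**Figure D4:**
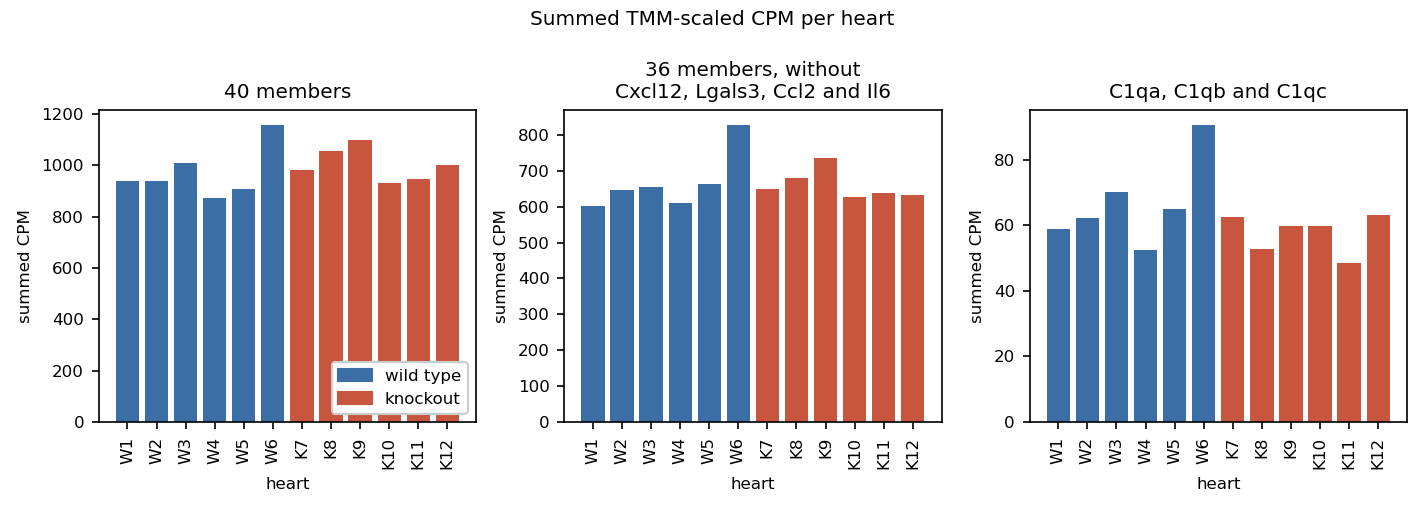
Summed TMM-scaled CPM per heart (bars from 0, 1 bar a heart) over all 40 members, over 36 members without Cxcl12, Lgals3, Ccl2 and Il6, and over the C1q chains, for wild-type (W1 to W6) and knockout hearts (K7 to K12). W6 is the highest bar in each panel, at 1157, 827 and 90.5 CPM. W4 and W5 lie below every knockout bar in the panel over 40 members, and W1 and W4 in the panel over 36 members. W3 and W5 also lie above every knockout bar in the C1q panel.

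Whether the members vary together from heart to heart was examined with Csf1r as the reference, in 34 pairs over 12 hearts, along with 12 further pairs of genes with related products. Values were log2(CPM + 0.5), p-values came from 100000 two-sided permutations, and adjustment was over the 46 pairs. With Csf1r, 27 correlations were positive and 7 negative, with a median r of 0.232. Spi1 was the 1 gene of 34 whose Pearson correlation passed the adjustment (r = 0.855, permutation p = 0.00045, adjusted p = 0.0207; rho = 0.769, permutation p = 0.00493, adjusted p = 0.227, n = 12). The rank correlation did not pass. Without W2 and W6, the hearts farthest from the median of Csf1r, r was 0.731 (n = 10). Within the genotypes r was 0.968 in wild type and -0.240 in knockout (n = 6 each), a difference that was not tested. On deviations from the genotype means its permutation p of 0.00342 was no longer under 0.05 after adjustment (adjusted p = 0.0787). Mrc1 came next (r = 0.688, permutation p = 0.0127, adjusted p = 0.117; rho = 0.685, permutation p = 0.0174, n = 12), with r = 0.684 without W2 and W6. Ptprc and Cd53 had the most negative correlations with Csf1r, at r = -0.449 and -0.557 (n = 12, permutation p = 0.147 and 0.0562), and neither passed.

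Among the pairs with related products, C1qa and C1qc correlated (r = 0.851, permutation p = 0.00115, adjusted p = 0.0265; rho = 0.671, permutation p = 0.0207, adjusted p = 0.317, n = 12), again with a rank correlation that did not pass. Without W6 and K11 their r was 0.550 (n = 10, permutation p = 0.0987, adjusted p = 0.504), and on deviations from the genotype means the adjusted permutation p was 0.0543, so the call was lost in both. With library totals it held (adjusted permutation p = 0.0357). Within the genotypes r was 0.881 and 0.671 (n = 6 each). C1qb and C1qc had r = 0.699 (permutation p = 0.0093, adjusted p = 0.116, n = 12) and C1qa and C1qb r = 0.653 (permutation p = 0.0101, adjusted p = 0.116, n = 12). Of the other pairs, none of which passed, the chemokines Ccl6 and Ccl9 had r = 0.559 (permutation p = 0.0522, adjusted p = 0.312, n = 12) and 0.398 without W1 and W6 (n = 10). Ccl2 and Il6 had r = 0.508 (permutation p = 0.0875, adjusted p = 0.335, n = 12) and 0.0846 without W2 and K8 (n = 10). Itgam and Itgb2 had r = -0.363, Fcer1g and Tyrobp -0.202, Fcer1g and Fcgr3 -0.106, Cd163 and Mrc1 0.0383, Cd163 and F13a1 -0.0464, and Folr2 and Cbr2 0.111 (n = 12 each, with permutation p of 0.247 or more). Without W6 and K11, r for Itgam and Itgb2 was -0.674 (n = 10, permutation p = 0.0319, adjusted p = 0.293). Without K8 and K9, r for Folr2 and Cbr2 was 0.613 (n = 10, permutation p = 0.0571, adjusted p = 0.328). Within the genotypes Folr2 and Cbr2 had r = 0.672 in wild type and -0.640 in knockout (n = 6 each), which was not tested. S100a8 and S100a9 had r = 0.516 over 12 hearts (permutation p = 0.0745) and -0.179 without W2 and K7 (n = 10), so that relation rests on those hearts.

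**Figure D5:**
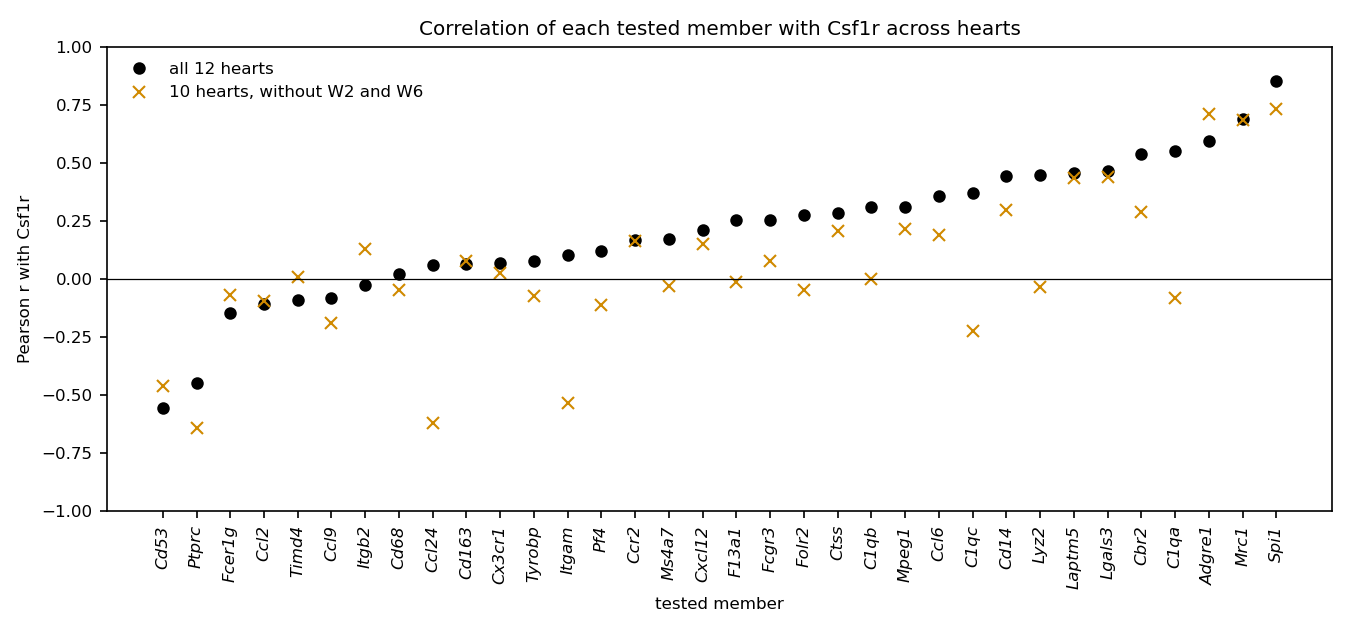
Pearson r of each of the 34 other tested members with Csf1r (vertical axis), over all 12 hearts (dots) and over 10 hearts without W2 and W6 (crosses), ordered by r. Spi1, Mrc1 and Adgre1 stay high in both, whereas C1qa, C1qc and Lyz2 are among the genes that move from above 0 to below 0 once W2 and W6 are left out.

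Other genes of the same cells, from lists written down apart from the 40, gave no call. Of 25 tested genes of mononuclear phagocytes, 10 had positive and 15 negative log2 fold changes, 0 passed in either direction and 0 had an unadjusted p under 0.05. The smallest p belonged to Coro1a, an actin-binding protein of leukocytes, at 6.86 ± 2.19 CPM over wild-type hearts against 5.28 ± 1.01 CPM over knockout hearts (SD, n = 6 each; log2 fold change -0.37), and to Vsig4, a complement receptor of resident macrophages, at 2.41 ± 1.07 CPM over wild-type hearts against 3.49 ± 0.609 CPM over knockout hearts (SD, n = 6 each; log2 fold change 0.52). For Coro1a, as for Ptprc, 3 knockout values fell under the whole wild-type range. Marco had 0 reads in every heart. The growth factors and receptors of the lineage had 5 tested genes, all with negative fold changes and 0 past the test, among them Il34, a further ligand of the Csf1r product, at 2.70 and 2.13 CPM, and Csf2rb, the shared beta chain of the receptors for GM-CSF and related cytokines, at 2.79 and 2.46 CPM. Of 13 tested chemokines and receptors outside the members 10 had positive and 3 negative fold changes, and 0 passed; Cxcl14 averaged 14.7 and 12.2 CPM. Of 11 complement and Fc receptor genes 4 were positive and 7 negative with 0 past the test, and Cfp, the gene of properdin, averaged 3.33 and 4.42 CPM and Fcgr2b, the inhibitory Fc receptor, 10.6 and 9.71 CPM. Of 8 cytokine receptors and partners 4 were positive and 4 negative with 0 past the test, and Tnfrsf1b averaged 13.7 and 15.7 CPM and Il6st 241 and 225 CPM. At an unadjusted p under 0.05 none of these 5 lists had a member, against 4.06% of all genes.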

How the data were processed

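Total RNA of 12 hearts was sequenced on an Illumina HiSeq, per the labels' design text. What the authors deposited is a count of reads for each NCBI mouse gene identifier, not normalized. The submitters' processing notes name bcl2fastq, CASAVA 1.8, TopHat, DESeq and the mm10 build. The counting program, the annotation and the treatment of strand and of reads matching several genes are stated in no source used here.

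Identifiers were paired with symbols through a RefSeq table (23976 of 24061), and exon lengths are unions of GENCODE M21 exons. Genes passing filterByExpr (minimum count 10, minimum total 15) entered edgeR 4.0.16 under R 4.3.3 (TMM scaling, quasi-likelihood F test, Benjamini-Hochberg adjustment over 13832 genes). DESeq2 1.42.0, limma 3.58.1, other scalings and filters, and leaving out libraries were alternatives. The scripts were tested on simulated data. Libraries held 10631869 to 13327519 counts, so a member with few reads carries a large counting error. Replicate numbers are not shared between the genotypes. The members and the other gene lists were chosen with earlier results of these data known. The text names all 40 members; ranges were given for Csf1r, Cd68, Ccr2, Timd4, the C1q chains, the 3 members with the smallest p in each direction, the 3 with the highest level per kilobase and the 3 tested members with the largest coefficient of variation, and of each other list the 2 genes with the smallest p. Of these, 1 gene is not reported here. Ranges for further members were added after their values were seen. The neutrophil, T and NK, B, mast, platelet, red cell, endothelial, fibroblast, fat cell and myocyte markers had 2, 0, 1, 3, 3, 9, 7, 6, 5 and 7 tested genes, none of which passed the adjusted edgeR test.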

Additional observations from a re-analysis of the deposited data

Results flagged for a closer look

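Within each genotype the highest or lowest of the 6 hearts was set against the rest, and a heart was picked out where its gap to its nearest neighbour was above Dixon's 95% critical value for 6 samples, as a share of the range of the group. Of 82 such sets 15 were picked out. Chance alone picks out about 1 in 20 sets, or 4.1 of 82, where values are normally distributed. The values here were CPM without a logarithm, and some sets hold very few reads. No excess of outlying hearts can therefore be read from 15 against 4.1. Sets of different genes from the same heart are not independent.

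In wild type, W6 stood above the other hearts for 3 macrophage genes, with 64.1 CPM for Csf1r, 33.3 CPM for C1qa and 258 CPM for Lyz2. W1 stood below the others for Ccl9, at 6.42 CPM. W2 was high for Il6 at 0.785 CPM, which is 10 reads, and W4 for Tnf at 0.703 CPM, which is 8 reads.

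In knockout, K7 was high for C1qb at 18.5 CPM and for S100a9 at 2.30 CPM. K8 was high for Cbr2 at 9.93 CPM, for Il1b at 0.975 CPM and for Il6 at 0.0886 CPM, the last of which is 1 read where the other 5 hearts had 0. K12 was low for Fcgr3 at 4.004 CPM and high for Cx3cr1 at 4.004 CPM. K10 was high for Fcer1g at 9.65 CPM, and K11 low for Spi1 at 1.08 CPM.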

How the results depend on the processing

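No member passed the adjusted test under any alternative run. Over all genes, edgeR called 0, DESeq2 12 and edgeR with no low-count filter 16, and leaving out 1 library gave from 0 to 2. Members at an unadjusted p under 0.05 numbered 1 in the reported fit, beside 4.06% of all genes, and 2 with limma-voom, beside 4.1%. There were 2 with library totals, 3 with no low-count filter and 2 without W2 and K7, and from 1 to 4 when 1 library was left out. The 4 came without W6, and there were 3 without W1 and 2 without W2, W3, K9, K10 or K11. For these further fits the share over all genes was not taken, so no excess of members can be read from their counts. Il6, with 15 reads in all, was among the 3 with no low-count filter. The median log2 fold change of the tested members ran from -0.051 to 0.022 and the log2 ratio of the summed level from 0.019 to 0.10 when 1 library was left out. The number of Pearson correlations with Csf1r past the adjustment, 1 as reported, was 1 with library totals, 0 on deviations from the genotype means and 0 without W2 and W6, where fewer hearts entered. Of the 12 further pairs, C1qa with C1qc passed as reported and with library totals, and not on deviations from the genotype means or without the 2 hearts farthest from the median of C1qa. For the other moves the cause was not tested. No paired analysis was possible because the genotypes share no replicate numbers.

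Of 292 alternative values for single members, 270 kept their direction and 22 changed sign, all of members whose reported log2 fold change was at most 0.09 in size. These values cover the other methods, scalings and filters and the removal of W2 with K7. Values with a single heart left out were counted for Ptprc alone. With limma-voom the log2 fold change became -0.066 for Cd68, -0.0045 for Cd163, 0.0034 for Lyz2, 0.016 for Mpeg1, 0.0031 for Cbr2 and -0.0014 for Itgb2. Without W2 and K7 it became -0.0058 for Cd68, -0.019 for Cd163, -0.014 for Fcgr3, -0.018 for Tyrobp, -0.0012 for Laptm5, 0.0027 for Lyz2, -0.124 for Ccr2, -0.030 for Folr2, -0.019 for Pf4 and -0.053 for Itgb2. Upper-quartile scaling gave -0.0075 for Cd68 and -0.011 for Cd163, and library totals 0.0010 for Lyz2. Cd163 was at -0.00053 with DESeq2, -0.00089 with RLE scaling and -0.0040 with no low-count filter. These directions are not established. Depth limits Il6, Il1b, Tnf, S100a8 and S100a9, with 15 to 129 reads in all.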

Other observations

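The summed CPM of C1qa, C1qb and C1qc divided by the CPM of Csf1r was 1.42 ± 0.138 in wild type and 1.15 ± 0.136 in knockout (SD, n = 6 each). The highest knockout heart, K9 at 1.277, lay just below the lowest wild-type heart, W4 at 1.279, so the genotypes did not overlap in this ratio, while they did for each of the 4 genes. The ratio does not depend on the scaling of the libraries. It was chosen after the values were seen, and it was not tested.

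The coefficient of variation between hearts was lower in knockout than in wild type for 25 of the 35 tested members (71.4%), beside 55.6% of all genes. Without W6 it was lower for 20 members, beside 50.8% of all genes. This too was seen in the data and not tested.

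Among markers of other leukocytes, Cxcr2 had means of 34.1 and 32.7 CPM over wild-type and knockout hearts, and Csf3r of 10.96 and 10.5 CPM. The granule genes Camp, Ltf, Ngp, Retnlg and Mmp8 of neutrophils averaged at most 0.296 CPM in either genotype. The 7 T and NK cell markers summed to 1.05 to 4.88 CPM in wild-type and 0.661 to 3.28 CPM in knockout hearts. Of the 3 tested mast cell markers, 1 had a positive and 2 a negative fold change. Kit averaged 7.28 and 9.16 CPM (log2 fold change 0.33, edgeR unadjusted p of 0.0427, adjusted p of 0.999), and Mcpt4 1.64 and 1.33 CPM (log2 fold change -0.30). Ms4a1, the tested B cell marker, averaged 1.05 and 0.751 CPM (log2 fold change -0.46).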
